A study of Mus musculus with 4 samples.

Results

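The genes described here are 10 immediate early genes, those that a cell switches on within minutes of a stimulus without first making new protein. They were chosen by name as activation-induced early factors and comprise the EGR family (*Egr1*, *Egr2* and *Egr3*), the NR4A family (*Nr4a1*, *Nr4a2* and *Nr4a3*) and *Ier2*, *Ier3*, *Atf3* and *Klf6*. All 10 were among the 25239 gene symbols listed in each of 4 RNA-Seq libraries of lung tumor-infiltrating CD4+ T cells, 2 labelled WT and 2 labelled CD4/ALK4-KO. All mice were on the C57BL/6 background, and were male and aged 8 to 10 weeks according to the methods. They carried lung tumors of intravenously injected LLC-OVA cells, an ovalbumin-expressing Lewis lung carcinoma line. The tumors were excised after 18 to 22 days according to the labels, whereas the methods give an earlier span of days for the CD4/ALK4-KO tumor model. The CD4/ALK4-KO mice had the genotype CD4CreERT2+/-/Acvr1bfl/fl, in which tamoxifen activates a Cre recombinase driven by the *Cd4* promoter so that *Acvr1b*, the gene of the activin type I receptor ALK4, is deleted in *Cd4*-expressing cells. The sources used here do not state whether the WT mice received tamoxifen or whether animals were pooled. Nothing in the labels says more of the replicates than that they are biological, so the p-values measure the spread between these libraries. The question addressed was whether early factors of T cell activation differed between CD4+ T cells with and without ALK4.

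EGR proteins are zinc finger factors induced in part through the Ras and ERK pathway. In T cells EGR2 and EGR3 are known both for antigen-driven activation and for the anergy program that restrains it. NR4A proteins are orphan nuclear receptors whose genes respond to antigen receptor and calcium signals, which makes *Nr4a1* a widely used reporter of T cell receptor stimulation, and they are known from dysfunctional T cells in tumors. None of these genes is restricted to T cells, and macrophages, fibroblasts and epithelial cells induce them as well. IER3 is a regulator of cell survival signalling and not a DNA-binding factor, so the name early factor fits it only loosely.

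The promoters of the NR4A genes and of *Egr2* are shown because *Nr4a3* and *Egr2* are the genes called below, and *Nr4a1* and *Nr4a2*, which were not called, are the family against which *Nr4a3* is compared. RefSeq windows of 250 bases before to 50 bases after each start (build GRCm38.p6) were matched for 7 of the 10 genes, in 11 windows, with none matched for *Egr1*, *Egr3* and *Ier2*. The NR4A promoters share short TGACG elements, the half-site of the cAMP response element, which were counted on both strands (CGTCA on the other). Each of the windows of *Nr4a1*, *Nr4a2* and *Nr4a3* held 4 of them. Of 32817 windows of this length, 0.232% held at least 4 and 20.8% at least 1. The minimum of 4 was taken from these same NR4A windows, so the 0.232% is a description and no test. The half-site is also the first part of the full element TGACGTCA. Unlike the full element, the half-site was added to the search after the sequences had been read. For each gene the 30 bases around the closest pair are printed 5′ to 3′ along the gene, with the half-sites in capitals.
Nr4a1, chr15:101266610-101266639, plus strand: ctgCGTCAatggaaccccgcgtgCGTCAcg
Nr4a2, chr2:57124104-57124133, minus strand: gccgggcTGACGgggccgcTGACGcgcttg
Nr4a3, chr4:48045083-48045112, plus strand: gtcccatgtCGTCAcatTGACGtctcgcat

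*Egr2* had the CArG box, the 10-base element bound by serum response factor, in 4 of its 5 windows, at 2 separate places, against 1.63% of all windows. Both boxes begin 72 bases before an annotated *Egr2* start. The 30 bases around each are printed with the box in capitals.
Egr2 first box, chr10:67537484-67537513, plus strand: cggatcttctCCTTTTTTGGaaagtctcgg
Egr2 second box, chr10:67537787-67537816, plus strand: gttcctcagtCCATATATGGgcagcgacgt

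No window of these 7 genes held the full element TGACGTCA (1.79% of all windows), the EGR element GCGTGGGCG (0.612%) or the NR4A element AAAGGTCA (1.51%), each searched on both strands. A match is a description of the sequence and no evidence of binding.

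The libraries held 11823908 to 13943237 counts. The targeted gene was checked first. *Acvr1b* had 426 and 342 counts under the WT label against 322 and 445 under the CD4/ALK4-KO label (log2 fold change 0.16, standard error 0.24, adjusted p = 0.66, edgeR), so it did not separate the genotypes, and directions below are between libraries as labelled. The label CD4+ T cells was borne out only in part. All 16 T cell markers, *Cd4* and *Cd3e* among them, were present, but their summed level was 523 and 571 CPM (counts divided by library size after TMM scaling) in the WT libraries and 2929 and 3018 CPM in the CD4/ALK4-KO libraries, and all 16 were called higher. The 12 macrophage markers summed to 6629 to 7946 CPM in every library, with 1 higher and 11 not called. Among B cell markers 8 of 8 were higher (60.1 to 71.4 against 232 to 437 CPM summed), and among dendritic cell markers 4 of 8 were higher and 1 lower (107 to 115 against 235 to 270 CPM). Among fibroblast markers 4 of 8 were lower and 4 not called (7975 to 8377 against 5389 to 5826 CPM). Among lung epithelial markers 5 of 8 were lower, while *Cdh1* and *Epcam* were higher (889 to 899 against 436 to 583 CPM). Of 8 heat shock genes 6 were lower and 2 not called (3348 to 3569 against 2071 to 2128 CPM). The alveolar macrophage list was mixed, with 2 of 8 higher and 2 lower, as was the endothelial list, with 1 of 8 higher and 1 lower, and 2 of 8 neutrophil markers were higher. No marker of these lists was at 0 in all libraries. The early genes were thus compared between genotypes that also differed in these markers, whose part in any result was not tested. In bulk RNA a smaller number of cells of a type and less RNA per cell cannot be told apart.

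Both libraries labelled CD4/ALK4-KO had more *Egr2*, *Egr3*, *Nr4a3* and *Klf6* RNA than both WT libraries. Of these only *Egr2* and *Nr4a3* were called higher, and the other 8 of the 10 genes passed the test in neither direction. So 2 of 10 genes were called, where 32.8% of all 13919 genes tested were called in either direction. By direction, 2 of 10 higher stood beside 17.4% of all genes higher, and 0 of 10 lower (0 also at an unadjusted p under 0.05, and 0 by DESeq2) beside 15.4% of all genes lower. The share that rose was near the background. In the plot of levels by library, CD4/ALK4-KO replicate 2 lay above replicate 1 for 9 of the 10 genes, so fold changes are also given without either of these libraries where the call or direction turned on it.

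**Figure D1:**
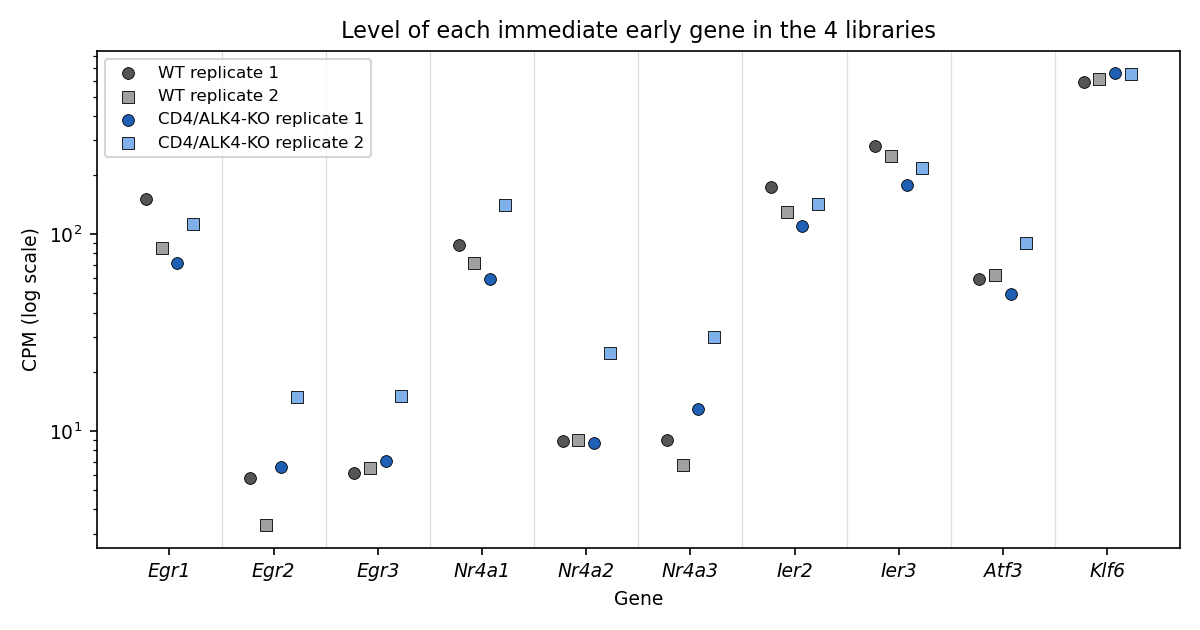
CPM (TMM-scaled, log axis) of each of the 10 genes, with 1 point per library and no error bars, since every library is shown. *Egr2*, *Egr3*, *Nr4a3* and *Klf6* have both CD4/ALK4-KO points above both WT points, and of these only *Egr2* and *Nr4a3* were called. CD4/ALK4-KO replicate 2 is the highest point for *Egr2*, *Egr3*, *Atf3* and the NR4A genes.

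Among the NR4A genes, *Nr4a3* (chromosome 4, 48045153 to 48086447, GRCm38, plus strand) had 123 and 91 counts in the WT libraries and 155 and 372 in the CD4/ALK4-KO libraries, or 8.98 and 6.73 against 13.0 and 30.1 CPM. The groups did not overlap, although replicate 2 alone reached 30.1 CPM. The mean level was 2.75-fold higher by the fit, a log2 value of 1.46 (SE 0.34, adjusted p = 0.0027, edgeR). Without CD4/ALK4-KO replicate 2 it was 0.72, no longer past the threshold, and without replicate 1 it was 1.97. On the scale set by T cell receptor genes, described below, it was -0.92 and called lower (adjusted p = 0.0072, edgeR).

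*Nr4a1* (chromosome 15, 101254269 to 101274795, plus strand), the member with the most counts, had 1207 and 969 counts against 701 and 1739, or 88.1 and 71.6 against 58.9 and 141 CPM. The CD4/ALK4-KO libraries lay on either side of the WT libraries. The log2 fold change of 0.32 had a 95% interval from -0.48 to 1.12 (adjusted p = 0.54, edgeR), and it was -0.44 without CD4/ALK4-KO replicate 2 and 0.85 without replicate 1, where it was called. *Nr4a2* (chromosome 2, 57106830 to 57124003, minus strand) had 122, 122, 104 and 309 counts, or 8.90 and 9.02 against 8.74 and 25.0 CPM. Here 3 libraries were at the same level and CD4/ALK4-KO replicate 2 stood alone. The log2 fold change of 0.91 (95% interval 0.11 to 1.72, adjusted p = 0.077, edgeR) was -0.042 without that library and 1.51, and called, without replicate 1.

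Of the EGR genes, *Egr2* (chromosome 10, 67535475 to 67542188, plus strand), with the CArG boxes printed above, had 79 and 45 counts in the WT libraries and 78 and 183 in the CD4/ALK4-KO libraries, or 5.76 and 3.33 against 6.55 and 14.8 CPM. WT replicate 1 and CD4/ALK4-KO replicate 1 were close to each other, and the groups did not overlap. The fitted difference was 2.35-fold, or 1.23 on the log2 scale (SE 0.39, adjusted p = 0.019, edgeR). It was 0.52 without CD4/ALK4-KO replicate 2 and 0.88 without WT replicate 2, not past the threshold in either case. On the T cell receptor scale it was -1.13 and called lower (adjusted p = 0.0056, edgeR).

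*Egr3* (chromosome 14, 70077203 to 70082614, plus strand) had 84 and 88 counts against 84 and 187, or 6.13 and 6.51 against 7.06 and 15.1 CPM. The groups again did not overlap, but CD4/ALK4-KO replicate 1 was close to the WT level. The log2 fold change of 0.81 had a 95% interval from 0.085 to 1.54 and missed the threshold (adjusted p = 0.080, edgeR). It was 0.15 without CD4/ALK4-KO replicate 2 and 1.29, and called, without replicate 1. *Egr1* (chromosome 18, 34859823 to 34864984, plus strand), the classical EGR factor of the growth factor response, ran opposite in sign, with 2067 and 1151 counts against 854 and 1397, or 151 and 85.1 against 71.7 and 113 CPM. WT replicate 1 was the highest library and the groups overlapped. The log2 fold change was -0.35 (95% interval -0.91 to 0.21, adjusted p = 0.34, edgeR), 0.11 without WT replicate 1, and -0.72 without CD4/ALK4-KO replicate 2, where *Egr1* was called lower.

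None of the remaining genes was called. *Klf6* (chromosome 13, 5861482 to 5870394, plus strand), a Krüppel-like factor, had 8120 and 8326 counts against 7803 and 8054, or 593 and 616 against 656 and 652 CPM. The groups did not overlap, yet the log2 fold change was 0.11 with a 95% interval from -0.31 to 0.54 (adjusted p = 0.71, edgeR). *Ier3* (chromosome 17, 35821684 to 35822923, plus strand) had 281 and 249 against 177 and 217 CPM, from 2106 to 3850 counts. Both WT libraries were above both CD4/ALK4-KO libraries, and the log2 fold change of -0.43 (95% interval -0.88 to 0.025, adjusted p = 0.14, edgeR) was -0.59 and called lower without CD4/ALK4-KO replicate 2. *Ier2* (chromosome 8, 84661331 to 84662852, minus strand), a nuclear early response protein, had 174 and 129 against 111 and 143 CPM, overlapping groups with a log2 fold change of -0.26 (95% interval -0.72 to 0.20, adjusted p = 0.40, edgeR). *Atf3* (chromosome 1, 191170296 to 191218039, minus strand), a stress-induced member of the ATF family, had 59.0 and 62.0 against 49.7 and 90.5 CPM. Its log2 fold change of 0.21 (95% interval -0.30 to 0.72, adjusted p = 0.55, edgeR) was -0.29 without CD4/ALK4-KO replicate 2 and 0.61, and called, without replicate 1. In total the groups did not overlap for 4 genes higher (*Egr2*, *Egr3*, *Nr4a3*, *Klf6*) and 1 lower (*Ier3*), where 32.7% and 34% of all genes tested were so separated.

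The libraries labelled CD4/ALK4-KO held more RNA of T cell genes, and the result for the early genes turned on how the libraries were scaled. Scaling instead by 7 T cell receptor and proximal signalling genes (*Cd3d*, *Cd3e*, *Cd3g*, *Cd247*, *Lck*, *Zap70* and *Lat*) moved the median over all genes by -2.39 on the log2 scale. All 10 early genes were then lower at an adjusted p under 0.05, as were 93.6% of all genes tested. The values on this scale ran from -0.92 for *Nr4a3*, -1.13 for *Egr2*, -1.48 for *Nr4a2* and -1.58 for *Egr3* to -2.82 for *Ier3*. In plain counts, there were 0.815 and 0.784 *Nr4a3* counts per *Cd3e* count in the WT libraries against 0.180 and 0.392 in the CD4/ALK4-KO libraries. For *Nr4a1* there were 7.99 and 8.35 per *Cd3e* count against 0.816 and 1.83. These ratios depend on the denominator. On the TMM scale *Cd3e* had the largest log2 fold change of the 7 genes (2.92), with 151 and 116 WT counts, and *Cd3d* the smallest (1.97). Over *Cd3d* counts (862 and 880 against 3024 and 3059), the *Nr4a3* ratios of the genotypes overlapped. A change of scale moves every gene by nearly the same amount. The order of the genes therefore stayed the same, and every value above 0, all being below 2.39, turned in sign.

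**Figure D2:**
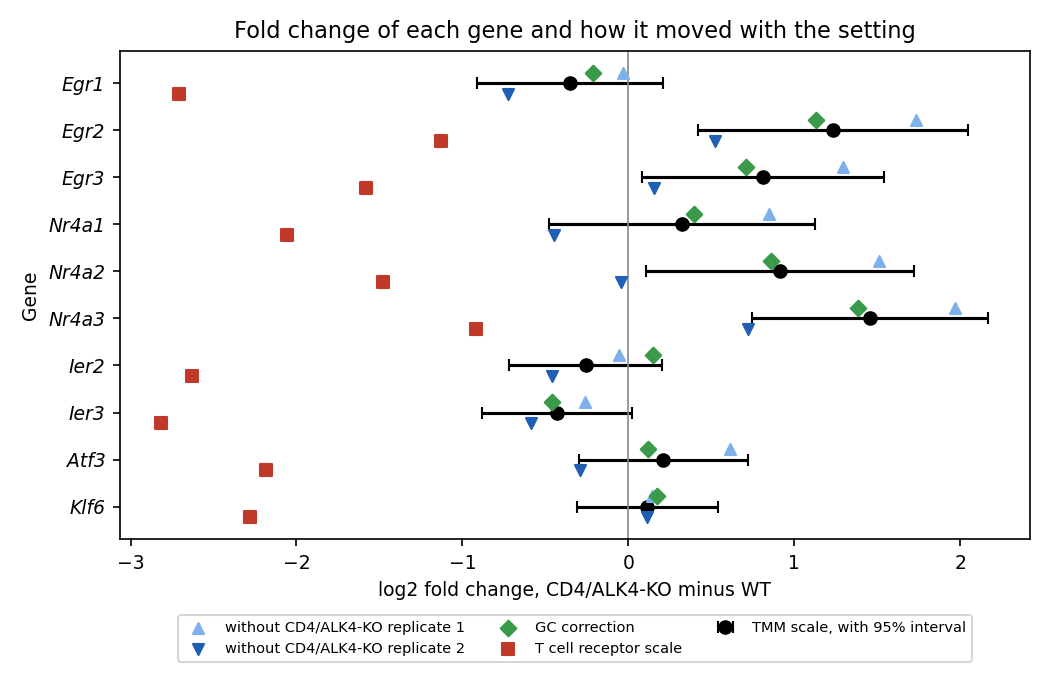
Log2 fold change of each gene, CD4/ALK4-KO minus WT, with black points and 95% intervals for the TMM-scaled fit of 2 against 2 libraries, and coloured points without either CD4/ALK4-KO library, after the GC correction and on the T cell receptor scale. *Nr4a3* and *Egr2* lie highest on each scale, where a change of scale moves all genes nearly alike. All 10 genes lie below 0 on the T cell receptor scale.

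Shares within a family do not depend on the scaling between libraries, and those of *Nr4a3* and *Egr2* were larger in both CD4/ALK4-KO libraries. *Nr4a3* made up 8.47% (95% Clopper-Pearson interval 7.09 to 10.02) and 7.70% (6.24 to 9.37) of the NR4A counts in the WT libraries against 16.1% (13.9 to 18.6) and 15.4% (13.96 to 16.9) in the CD4/ALK4-KO libraries. The share was alike in CD4/ALK4-KO replicates 1 and 2, although their NR4A counts were 960 and 2420. *Nr4a1* had the smaller share in the CD4/ALK4-KO libraries, with 83.1% and 82.0% against 73.0% and 71.9%, or 9.81 and 10.6 *Nr4a1* counts for each *Nr4a3* count against 4.52 and 4.67. The share of *Nr4a2* ran from 8.40% to 10.3% against 10.8% to 12.8%, and the intervals of the genotypes overlapped. These intervals cover counting error only, and the shares are given as a description, with no test, because an exact permutation test of 2 libraries against 2 cannot reach a p under 0.05.

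*Egr2* likewise took 3.54% and 3.50% of the EGR counts in the WT libraries against 7.68% and 10.4% in the CD4/ALK4-KO libraries, with no overlap of the intervals between genotypes. For *Egr3* the shares were 3.77% and 6.85% against 8.27% and 10.6%, and those of WT replicate 2 and CD4/ALK4-KO replicate 1 overlapped in their intervals. *Egr1* held 92.7% and 89.6% against 84.1% and 79.1%. For the IER pair the libraries of the genotypes lay close, as *Ier3* made up 61.8% and 65.9% of the summed *Ier2* and *Ier3* counts against 61.5% and 60.3%.

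**Figure D3:**
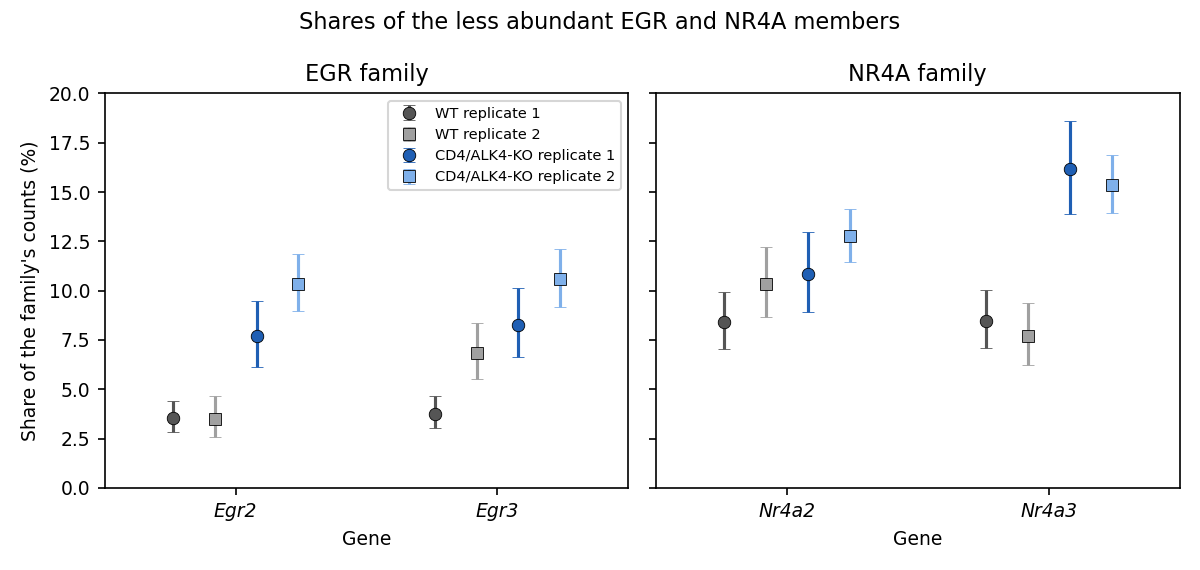
Share of the EGR counts held by *Egr2* and *Egr3* and of the NR4A counts held by *Nr4a2* and *Nr4a3*, in percent on an axis from 0, with 1 point per library and 95% Clopper-Pearson intervals of counting error. The *Egr2* and *Nr4a3* intervals of the 2 CD4/ALK4-KO libraries lie above those of the 2 WT libraries.

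The CD4/ALK4-KO libraries differed from each other in the NR4A genes, *Egr2* and *Egr3* by more than nearly all genes averaging 100 counts or more. *Atf3* was at the edge of the range. The ratio of CPM in replicate 2 over replicate 1 was 2.86 for *Nr4a2*, 2.39 for *Nr4a1*, 2.31 for *Nr4a3*, 2.26 for *Egr2* and 2.15 for *Egr3*, whereas 10460 genes averaging 100 counts or more had a median of 0.997, with the central 95% of them between 0.581 and 1.82. *Egr2*, with 45 to 183 counts per library, averaged below that minimum of 100, and no range was taken for genes of like count. *Klf6* was at 0.995, *Ier3* at 1.22, *Ier2* at 1.29, *Egr1* at 1.58 and *Atf3* at 1.82. The summed T cell markers were level in these libraries (3018 and 2929 CPM), those of B cells were 232 and 437 CPM and those of neutrophils 1413 and 926 CPM, and their part in the ratio was not tested.

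Part of the difference ran with base composition. Among genes averaging 100 counts or more, the tenth with the highest GC content had a median ratio of 1.21, and the tenth with the lowest 0.747. Against genes within 1 percentage point of their own GC content, *Nr4a1* (57.0% GC) at 2.39 stood beside a median of 1.24, and *Nr4a2* (47.9% GC) at 2.86 beside 0.963. After a correction for GC content, chosen after the data were seen, the ratios were 1.97 for *Nr4a1*, 2.997 for *Nr4a2*, 2.37 for *Nr4a3*, 2.06 for *Egr2* and 1.96 for *Egr3*, but 1.03 for *Ier3*, 1.09 for *Ier2* and 1.30 for *Egr1*. With this correction *Nr4a3* (1.38, adjusted p = 0.022, edgeR) and *Egr2* (1.13, adjusted p = 0.038, edgeR) remained higher. *Ier3* was called lower at -0.46 (adjusted p = 0.015, edgeR), which it was not without the correction (adjusted p = 0.14, edgeR). Between the WT libraries, replicate 1 over replicate 2, *Egr1* (1.77) and *Egr2* (1.73) differed most, beside medians of 1.20 and 1.03 for genes of like GC content.

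**Figure D4:**
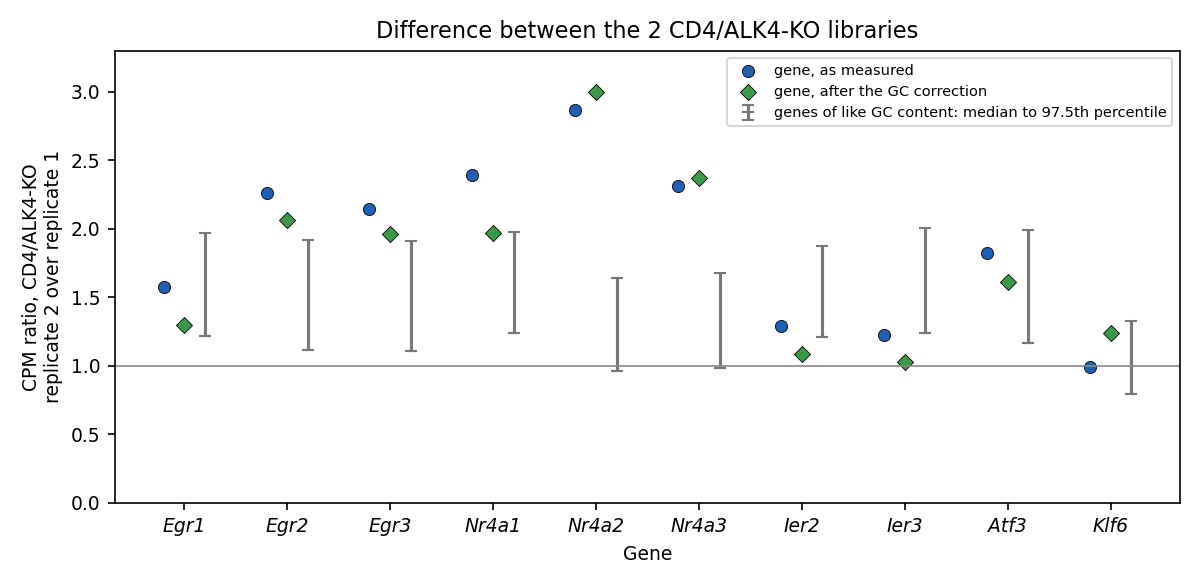
Ratio of CPM in CD4/ALK4-KO replicate 2 over replicate 1 for each gene as measured and after the GC correction, beside the median of genes within 1 percentage point of the same GC content and the upper end of the central range holding 95% of them. The 3 NR4A genes, *Egr2* and *Egr3* lie above that range as measured, the other 5 within it. The genes compared averaged 100 counts or more.

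Levels of different genes were compared per kilobase of annotated exons. In the WT libraries *Ier3* was highest, with a mean of 234 CPM per kb, followed by *Klf6* (138) and *Ier2* (99.5), and the libraries of these neighbours did not overlap. *Atf3* (28.1), *Egr1* (26.3) and *Nr4a1* (22.8) followed. The libraries of *Egr1* overlapped those of both its neighbours, whereas *Atf3* was above *Nr4a1* in each WT library. *Nr4a2* had 2.21 CPM per kb, above *Egr3* (1.43), *Egr2* (1.34) and *Nr4a3* (1.31), which overlapped. In the CD4/ALK4-KO libraries the first 4 genes kept this order (174, 149, 83.2 and 32.5 CPM per kb), *Nr4a1* (28.5) came before *Egr1* (20.6), and *Nr4a3* (3.60) stood above *Egr2* (3.15) and *Egr3* (2.52), with overlapping libraries among the last 4.

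Genes were also compared by the shape of their levels over the 4 libraries, as the Euclidean distance of log2 CPM centred on each gene's mean. Within the set, the closest pairs were *Ier2* with *Ier3* (distance 0.259), *Egr3* with *Nr4a2* (0.299), *Egr2* with *Nr4a3* (0.313), *Egr1* with *Ier2* (0.354) and *Nr4a1* with *Atf3* (0.383). Over 10460 genes, the nearest to *Nr4a3* were *Adam19* (0.166) and *Mzb1* (0.185), to *Nr4a1* *Prr12* (0.149) and *Trp53rka* (0.173), and to *Egr1* *Adrm1* (0.106) and *Stab1* (0.114). *Kri1* (0.224) was among the 2 nearest to *Egr2*. *Nr4a2* was nearest to *Zfp142* (0.152) and then to *Egr3*. With 4 libraries these distances describe the libraries only.

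Other genes of the pathway were described by lists whose median log2 fold change is set beside that of all genes tested, -0.0082. Of 28 other early response genes, 27 were tested, 8 were higher and 3 lower (17.4% and 15.4% of all genes), with a median of 0.40. *Tnfaip3*, an inhibitor of NF-kB signalling, rose by 1.78 (log2, SE 0.22, adjusted p = 2.6e-06, edgeR), from 183 ± 6.06 to 628 ± 90.8 CPM (SD, n = 2 libraries each). *Btg1*, an antiproliferative gene, rose by 1.30, the activation marker *Cd69* by 1.40, and the anti-apoptotic *Mcl1* was at 0.35 and not called. *Ccn1*, which encodes a matrix-associated protein, fell by 1.25 on the log2 scale (standard error 0.26, adjusted p = 0.00090, edgeR), from 110 to 46.3 CPM. *Egr4*, the remaining EGR gene, had too few counts to be tested.

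Among 12 transcription factors that act upstream of early genes, 6 were higher and 6 were not called (median 0.63), beside 17.4% of all genes higher. *Elk4*, a partner of serum response factor, rose by 1.62 (standard error 0.23, adjusted p = 1.3e-05, edgeR), *Creb1* by 0.65 and *Mef2a* by 0.63. *Srf* itself had 62.8 and 43.2 against 33.3 and 46.7 CPM and was at -0.41 (adjusted p = 0.20, edgeR), and *Elk3* at 0.010. Of 10 genes of Ras and ERK signalling, 3 were higher and 1 lower (median -0.11), beside 17.4% and 15.4% of all genes. *Rasgrp1*, the lymphocyte activator of Ras, rose by 3.22 (standard error 0.25, adjusted p = 2.5e-08, edgeR), from 17.8 and 28.8 to 235 and 199.98 CPM. *Hras* fell by 0.96 on the log2 scale, whereas *Map2k1* (0.010) and *Nras* (-0.19) were not called.

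Of 10 phosphatase and Sprouty genes that feed back on ERK, 1 was higher and 2 were lower (median -0.15), close to the 17.4% and 15.4% of all genes. *Dusp2*, a nuclear phosphatase of lymphocytes, rose by 1.34 (standard error 0.22, adjusted p = 8.2e-05, edgeR), from 31.6 and 29.1 to 68.6 and 85.0 CPM. *Spred1* fell by 0.88 on the log2 scale, and *Dusp1*, with the most counts of them, was at 0.018 and *Dusp6* at -0.23, both not called. Of 8 corepressors and partners of EGR and NR4A proteins, 7 were tested and 2 were higher (median 0.049), beside 17.4% of all genes. *Nab1*, a corepressor of EGR proteins, rose by 0.66 (standard error 0.21, adjusted p = 0.018, edgeR), while its paralog *Nab2*, itself an EGR target, was at -0.40, *Kdm1a* at 0.049 and *Rxrb*, a partner of NR4A receptors, at -0.46, none of them called.

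Of 12 anergy genes linked to EGR2 and EGR3, 6 were higher and 6 were not called (median 0.55), beside 17.4% of all genes higher. The 16 T cell markers, all called higher, had a median of 2.42 on the same scale, and their part in this list was not tested. *Dgka*, a diacylglycerol kinase that limits Ras activation, rose by 2.45 (standard error 0.23, adjusted p = 6.5e-08, edgeR), from 77.9 and 80.9 to 404 and 464 CPM. The ubiquitin ligase gene *Itch* was at 0.31 and *Ndrg1* at -0.52, and neither was called. On the T cell receptor scale the medians of these 6 lists lay between -1.78 and -2.53, beside a median shift of -2.39 over all genes.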

How the data were processed

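The authors prepared TruSeq RNA v2 libraries from total RNA of CD4+ T cells isolated with kits from lung tumor leukocytes, sequenced 75 bp single-end reads, aligned them to mm10 with HISAT2 and counted them with htseq-count (intersection non-empty). The deposited values are whole-number read counts for each gene symbol, which the authors had not normalized. The annotation, strand setting and tool versions are not given in the sources used here. Reads shared with pseudogenes or overlapping genes (a small RNA gene overlaps *Atf3*) can therefore be misassigned.

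The test was run in edgeR 4.0.16 (R 4.3.3). Of the genes listed, 13919 passed filterByExpr, the 10 described among them, TMM gave the scaling, and the robust quasi-likelihood test had genotype as its only term. p-values were Benjamini-Hochberg adjusted over all genes tested, with a threshold of 0.05. Standard errors are the absolute log2 fold change over the square root of F. The script was tested on simulated data. Replicates differed beyond sampling noise (chi-square per degree of freedom 16.0 and 28.7) and were kept separate. Exon lengths, GC content (for 98.5% of genes tested) and loci come from GENCODE M21 on GRCm38, the genome of mm10, and promoters from RefSeq. Protein sequences were not used here.

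The genes and lists were chosen with earlier results of these data known. Named genes were the 10, *Acvr1b*, *Cd4*, per list the 3 with the most counts and the smallest p in each direction, and the 2 genes nearest in profile. *Cd69*, *Egr4*, *Cd3e*, *Cdh1* and *Epcam* were named after their values were seen, and 2 genes that the rule named are not reported here. Alternatives were RLE and upper quartile scaling, the T cell receptor scale, no filter, at least 10 counts in every library, DESeq2 1.42.0, the replicate number as a block, each library left out and, added later, the GC correction and a crossed block.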

Additional observations from a re-analysis of the deposited data

How the results depend on the processing

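*Nr4a3* and *Egr2* stayed called higher with RLE and upper quartile scaling, both count filters, DESeq2, the replicate block and the GC correction. On the T cell receptor scale 0 of the 10 genes were higher and 10 lower (25 and 13024 of all genes), with reversed values of -1.13 (*Egr2*), -1.58 (*Egr3*), -2.06 (*Nr4a1*), -1.48 (*Nr4a2*), -0.92 (*Nr4a3*), -2.18 (*Atf3*) and -2.28 (*Klf6*). The GC correction turned *Ier2* to 0.15 and called 1 gene lower. Without a count filter *Nr4a2* was called too (3 genes). Leaving out each library in turn gave 0 to 6 of the 10 genes higher and 0 to 2 lower (1103 to 2923 and 754 to 2618 of all genes, the lowest without a WT library). Log2 fold changes then ran from -0.72 to 0.11 for *Egr1*, -0.44 to 0.85 for *Nr4a1*, -0.042 to 1.51 for *Nr4a2* and -0.29 to 0.61 for *Atf3*. The lone library of a genotype was then assumed to vary like the others.

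The labels number the replicates but name no shared batch, and the differences between replicates 1 and 2 correlated at -0.315 over 11631 genes between genotypes. With the replicate number as a block, 2 of the 10 genes were higher and 0 lower, and 1768 and 1444 of all genes. The crossed pairing, chosen after seeing the data, gave 3 and 1 of the 10 genes and 3118 and 3037 of all genes. With 2 libraries per genotype, and 45 to 187 counts per library for *Egr2* and *Egr3*, the intervals stayed wide.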
